A study of Homo sapiens with 42 samples.

Results

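The initiator methionine tRNA (iMet) and the elongator methionine tRNA (Met) were followed as 20 annotated copies, out of 499 named nuclear tRNA rows and 175946 rows in the whole count table. A copy was included when its row was annotated as a tRNA, lay outside the mitochondrial chromosome, was at most 500 bases long and carried a name for iMet or Met. The rule, which reads the annotation alone, took 9 iMet and 11 Met copies. By the sequence identifier of each row, the iMet copies formed 2 families, TRX-CAT1 with 8 copies and TRX-CAT2 with 1. The Met copies formed 7 families: TRM-CAT1, TRM-CAT2, TRM-CAT6 and TRM-CAT7 with 1 copy each, TRM-CAT3 and TRM-CAT5 with 2 each, and TRM-CAT4 with 3. In the table of RefSeq gene symbols 19 of the 20 copies were found, all but TRX-CAT2-1.

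Small RNA was sequenced from human cell lines, with and without treatment by Antarctic Phosphatase and polynucleotide kinase (plus and minus PNK). A4, A7, E4 and G8 were labelled THP-1, a line of monocytic leukaemia cells. The study deleted POLR3G and POLR3GL in THP-1, but the labels do not say which of these groups carried which deletion, nor whether a group was 1 clone. The libraries labelled mock were HEK293T, an embryonic kidney line, transfected with 200 nM of a control antisense oligonucleotide. Every group had 3 libraries per arm, 30 in all, and the 12 further samples of the series, THP-1 cells labelled con and HEK293T cells given the oligonucleotide against POLR3G, were not analysed here. As labelled, a comparison with mock therefore crosses cell line, transfection and genotype, which cannot be told apart. The cell line of the libraries labelled mock is in doubt, since their summed haematopoietic miRNA without PNK lay within the range of the THP-1 libraries. With PNK that sum lay below A4, A7 and E4 and within the range of G8. The markers were read as a sum and not singly. Nothing in the labels says that the 3 libraries of a group came from separate cultures, so a p-value measures the spread between these libraries, which may be technical.

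The nucleus of a human cell encodes methionine tRNAs of both kinds, and both read the AUG codon. The initiator tRNA is carried to the small ribosomal subunit by the factor eIF2 and sets the start of translation, whereas the elongator tRNA is brought by eEF1A and inserts methionine inside proteins. Mitochondria have a methionine tRNA of their own, MT-TM, that serves both roles and is transcribed from mitochondrial DNA. Nuclear tRNA genes are transcribed by RNA polymerase III from promoter boxes inside the gene, and POLR3G and POLR3GL are alternative subunits of that enzyme. Small RNA libraries capture RNAs whose ends can be ligated: PNK restores 5′ phosphates and removes phosphates from 3′ ends, so the plus PNK arm also takes in fragments with blocked ends. A count in these tables does not say whether the read came from a whole tRNA, a precursor or a fragment.

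The elongator TRM-CAT6-1 is shown because its share of the reads changed most with PNK, and the mitochondrial MT-TM because it is the methionine tRNA that RNA polymerase III does not make. The sequences are those of the GENCODE annotation on GRCh38, without the CCA tail that is added after transcription, and the capitals mark the anticodon. TRM-CAT6-1 lies at chr16:87384022-87384094 on the minus strand, and its anticodon fills positions 34 to 36 of 73. MT-TM lies at chrM:4402-4469 on the plus strand, and its anticodon fills positions 31 to 33 of 68. No initiator sequence is printed.
TRM-CAT6-1: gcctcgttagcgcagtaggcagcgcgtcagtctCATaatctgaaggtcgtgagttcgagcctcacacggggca
MT-TM: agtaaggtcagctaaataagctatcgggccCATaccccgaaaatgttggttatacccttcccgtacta

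The counts on the TRM-CAT6-1 row lay on the tRNA itself. With PNK the row held 16043 counts over 15 libraries, and without PNK it held 4947. A non-coding RNA row of 24456 bases on the same strand that contains the whole tRNA held 16081 counts with PNK and 4960 without it. A row of 7746 bases on the opposite strand held 16049 and 4951, so counting took no account of strand and the reads of the longer rows were nearly all those of the tRNA. A further row on the opposite strand covers positions 1 to 39 of the tRNA, which include the anticodon, and sequence beyond its 5′ end, and it held 16037 counts with PNK and 4904 without it. Summed over the libraries in which the tRNA row held more than that row, at least 12 reads with PNK and 44 without it thus lay outside the first 39 positions.

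Libraries held 5525452 to 7847859 counts with PNK and 9656700 to 13272745 counts without it, over 85934 rows that do not overlap each other. Nuclear tRNA made up 7.40% to 14.9% of the counts with PNK and 0.997% to 4.25% without it. Here and in every share of nuclear tRNA below, only named rows were counted, which leaves out 257 unnamed nuclear tRNA rows. Of 7 miRNA markers of haematopoietic cells, 6 or 7 were detected in every THP-1 group and 6 in mock. Their summed level without PNK was 5705 to 10674 CPM (TMM-scaled counts per 1000000 counts) in A4, A7 and E4, 863, 1350 and 6970 CPM in the 3 G8 libraries, and 4980 to 7674 CPM in mock, within the range of the THP-1 libraries although mock is labelled as kidney cells. With PNK the sum was 191 to 577 CPM in A4, A7 and E4, 39.8 to 136 CPM in G8 and 85.7 to 90.2 CPM in mock. Of 6 epithelial markers 5 or 6 were detected in every group without PNK, and their sum was 20.5 to 69.1 CPM in A4, A7 and E4, 4.78 to 35.8 CPM in G8 and 26.6 to 41.5 CPM in mock, with MIR205 at 0 in all but G8. Of 5 fibroblast markers 4 were detected, and their sum was 52.1 to 240.2 CPM in A4, A7 and E4, 10.6 to 234.6 CPM in G8 and 108.5 to 170.8 CPM in mock, with MIR214 at 0 in every group. With PNK neither sum passed 4.36 CPM in any library. G8 replicates 1 and 2, and A4 replicates 1 and 2 with PNK, stood apart. The edgeR tests of the sums and families, and the tests of the iMet to Met ratio, were also run without them. So were the tests between arms of the iMet and Met shares of nuclear tRNA. Tests among groups of shares and of the TRM-CAT6 to TRM-CAT1 balance, and tests between arms of family or copy shares, were run with all libraries only.

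Without PNK, edgeR with all libraries called the elongator sum lower in A4, E4 and G8 than in mock, and called the initiator sum in no group. Met was at 47.4, 46.1 and 62.5 CPM in A4, 138.9, 130.2 and 115.9 CPM in A7, 54.6, 55.8 and 59.9 CPM in E4, and 54.7, 68.0 and 152.8 CPM in G8, against 223.9, 256.0 and 186.0 CPM in mock. All 12 THP-1 libraries lay below the 3 mock libraries, and G8 replicate 3 was the highest of the THP-1 libraries. By edgeR the log2 difference from mock was −2.09 ± 0.36 in A4 (SE, adjusted p = 0.0356), −1.97 ± 0.36 in E4 (adjusted p = 0.0247) and −1.27 ± 0.35 in G8 (adjusted p = 0.0218). In A7 it was −0.79 ± 0.35 (adjusted p = 0.465). Bulk libraries cannot tell fewer cells of a type from less RNA per cell.

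Those calls stood against backgrounds of very different size: of all features tested, 0.201% were called for A4, 0% for A7, 1.07% for E4 and 25% for G8. Leaving out single libraries ended the Met call in A4 (any A4 library, A7 replicate 1, or mock replicate 1 or 2; adjusted p 0.0556 to 0.237) and in E4 (any E4 library, or mock replicate 1 or 2; 0.0760 to 0.123). In G8 the call was lost without G8 replicate 1 or 2 or mock replicate 2 (0.0707 to 0.0990), and without both G8 replicates the log2 difference was −0.35 (adjusted p = 0.492). In A7 the call appeared without G8 replicate 3 (−0.82, adjusted p = 0.0177).

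**Figure D1:**
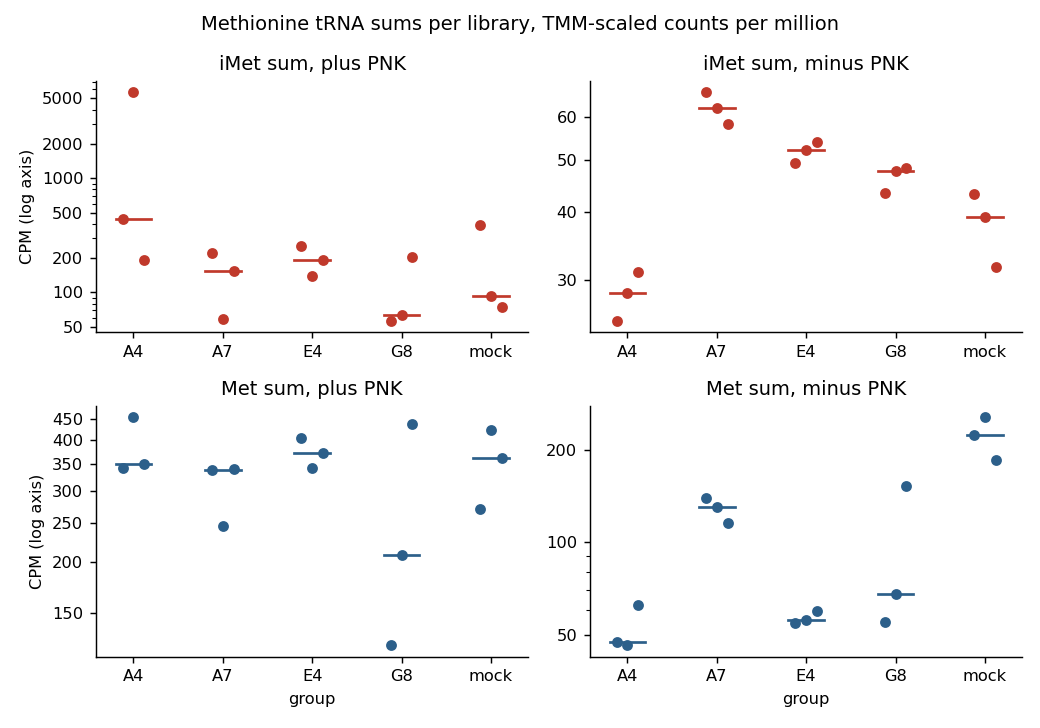
iMet sum (red, upper panels) and Met sum (blue, lower panels) in TMM-scaled CPM on log axes, with PNK on the left and without it on the right. Each point is 1 library (3 per group) and each bar the group median. Without PNK the 3 mock libraries are highest for Met, and for iMet they lie above A4 and below A7, E4 and G8. With PNK A4 replicate 2 stands at 5647 CPM of iMet.

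The initiator sum without PNK was at 25.2, 28.4 and 31.1 CPM in A4, 66.7, 62.3 and 58.3 CPM in A7, 49.4, 52.2 and 53.9 CPM in E4, and 43.4, 47.7 and 48.3 CPM in G8, against 43.3, 39.3 and 31.6 CPM in mock. A4 was lowest and A7 highest, and neither overlapped another THP-1 group. E4 lay just above G8, and mock lay above A4 and just below G8. The log2 difference from mock was −0.43 ± 0.24 for A4 (edgeR, adjusted p = 0.410), 0.71 ± 0.24 for A7 (0.319), 0.45 ± 0.23 for E4 (0.409) and 0.29 ± 0.23 for G8 (0.368). In A7 it was past the threshold without G8 replicate 3 (0.68, adjusted p = 0.0243). With DESeq2 in place of edgeR, iMet was called higher than mock in A7 (0.71, adjusted p = 0.00594) and G8 (0.49, 0.0209).

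Among the 4 THP-1 groups, both sums differed without PNK by the F test of edgeR, with an adjusted p of 0.0286 for iMet and 0.0470 for Met. The background was high, since 31.1% of all features passed the same test. Of the 6 pairs of groups, 1 was called for iMet, with A4 below A7 by a log2 difference of −1.14 ± 0.25 (adjusted p = 0.0405, where 4.91% of all features were called), and none for Met. Between A4 and A7, 44 of the 46 other nuclear tRNA sums by anticodon were also lower in A4, with a median of −0.70. Of these 46, 7 were called lower, and iMet was 8th lowest of 48. In the other 5 pairs, where neither methionine sum was called, the background was 0.208% (A4 and E4), 24.9% (A4 and G8), 0.0692% (A7 and E4), 29.3% (A7 and G8) and 22.1% (E4 and G8). For Met, A4 minus A7 was −1.30 ± 0.38 (adjusted p = 0.0615) and A7 minus E4 was 1.18 ± 0.38 (adjusted p = 0.250). These calls were fragile. Leaving out any library but G8 replicate 3 ended the iMet F test (adjusted p 0.0501 to 0.133), and any library of A4, A7 or E4 ended that of Met (0.0565 to 0.112). The A4 to A7 difference of iMet was lost without A4 replicate 1 or 2, any A7 library or any E4 library (adjusted p 0.0546 to 0.180).

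Set among the 48 nuclear isoacceptor sums tested without PNK (an isoacceptor is all tRNAs with 1 anticodon, with iMet kept apart from Met), Met stood at the low end. It was the 2nd lowest of the 48 log2 differences from mock in A4, the lowest in A7 and E4, and the 2nd lowest in G8. The iMet sum was 20th, 43rd, 38th and 33rd from the lowest. The other 46 isoacceptors had a median log2 difference from mock of −0.35 (A4), 0.32 (A7), 0.03 (E4) and −0.14 (G8). Of these 46, 1 fell in A4, none was called in A7, 1 rose in E4, and in G8 6 rose and 5 fell. These 4 comparisons share the mock libraries, so the low place of Met in each is not 4 independent observations.

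**Figure D2:**
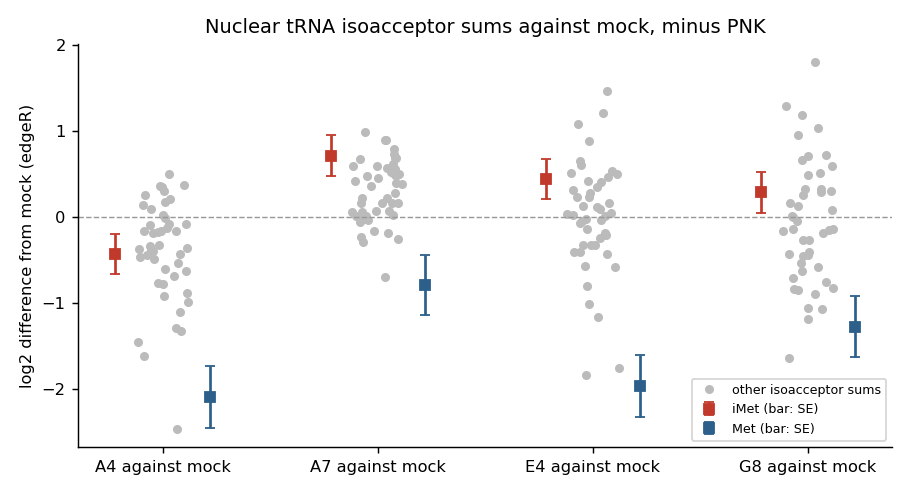
Log2 difference from mock without PNK (vertical axis, edgeR) for 48 nuclear isoacceptor sums in A4, A7, E4 and G8. Grey points are the 46 other isoacceptors, the red square is iMet and the blue square is Met, each with its SE as a bar. Met lies at −2.09, −0.79, −1.97 and −1.27, at or next to the lowest point in every group, and iMet lies within the grey points.

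The mitochondrial MT-TM passed no test against mock without PNK. It averaged 113.7 ± 35.9 CPM for A4, 95.01 ± 27.7 CPM for A7, 111.8 ± 41.0 CPM for E4 and 63.2 ± 15.1 CPM for G8, against 94.7 ± 43.1 CPM for mock (SD, n = 3 each). Its log2 differences from mock were 0.26 (A4), 0.00 (A7), 0.24 (E4) and −0.58 (G8; edgeR, adjusted p 0.301 to 0.999). With PNK it was 1.16 ± 0.29 higher in A4 (adjusted p = 0.0134) and 1.29 ± 0.29 higher in E4 (0.00981) than in mock, on the log2 scale. With PNK neither methionine sum of the nucleus was called in E4.

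The ratio of iMet to Met within a library does not depend on how libraries are scaled. Without PNK its log2 was −0.91, −0.70 and −1.01 in A4, −1.06, −1.06 and −0.99 in A7, −0.14, −0.10 and −0.15 in E4, and −0.34, −0.51 and −1.66 in G8, against −2.37, −2.71 and −2.56 in mock. The 3 mock libraries had the lowest ratios of all 15, and E4 had the highest, near equal counts of both kinds. The 5 groups differed (exact permutation test over 1401400 arrangements, p = 0.000779, adjusted over 16 tests of shares and ratios p = 0.00623). Counted only over copies that overlap no other row, which leaves rare elongator copies, the exact p was 0.0699 and the log2 ratio was 1.45 in A4 replicate 3, against 1.72, 1.59 and 2.21 in mock. Among the 4 THP-1 groups alone the exact p was 0.0708, and without G8 replicates 1 and 2 it was 0.000714. It was also under the threshold without G8 replicate 1 (0.0256) or G8 replicate 3 (0.000130).

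As a share of nuclear tRNA counts without PNK, iMet held 0.141% to 0.272% in the THP-1 libraries, against 0.106%, 0.161% and 0.159% in mock. Met held 0.265% to 0.722% in the THP-1 libraries, against 0.548%, 1.05% and 0.932% in mock. The 5 groups differed in the iMet share (exact permutation p = 0.00210, adjusted 0.0112), but over the 4 THP-1 groups alone it missed the threshold after adjustment (exact p = 0.0162, adjusted 0.0862). Over the 5 groups the Met share missed it as well (exact p = 0.0137, adjusted 0.0550). For Met, only G8 replicate 3 (0.722%) among the THP-1 libraries was above the lowest mock library.

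**Figure D3:**
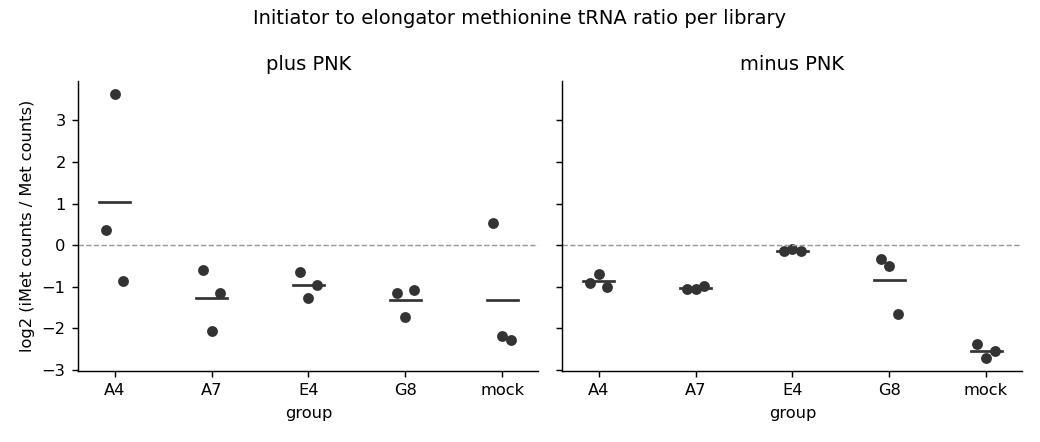
Log2 of iMet counts over Met counts in each library (vertical axis), with PNK on the left and without it on the right; points are libraries, 3 per group, and bars are group means. Without PNK mock lies between −2.71 and −2.37, under every THP-1 library, and with PNK the highest libraries are A4 replicate 2 at 3.63 and mock replicate 1 at 0.52.

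The low elongator sum was carried by its 2 abundant families. TRM-CAT1 held 62.8% of Met counts without PNK and TRM-CAT6 held 26.9%, both from a single copy. TRM-CAT1 was at 28.5, 28.1 and 36.2 CPM in A4, 69.4, 67.1 and 65.9 CPM in A7, 31.4, 28.4 and 33.0 CPM in E4, and 38.4, 57.5 and 104.4 CPM in G8, against 122.2, 184.6 and 157.8 CPM in mock. No THP-1 library reached the lowest mock library. It fell in A4 (log2 difference −2.32 ± 0.35, edgeR, adjusted p = 0.00557), E4 (−2.32 ± 0.35, adjusted p = 0.00560) and G8 (−1.21 ± 0.34, adjusted p = 0.0203), while A7 gave −1.20 ± 0.34 (adjusted p = 0.211).

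TRM-CAT6 without PNK was at 11.9, 11.3 and 17.0 CPM in A4, 45.0, 46.7 and 35.2 CPM in A7, 12.4, 13.1 and 14.1 CPM in E4, and 12.04, 11.6 and 30.2 CPM in G8, against 79.0, 58.7 and 36.3 CPM in mock. A4, E4 and G8 lay below mock, and A7 overlapped it. The log2 differences from mock were −2.11 ± 0.40 in A4 (edgeR, adjusted p = 0.0321), −2.13 ± 0.40 in E4 (0.0136) and −1.69 ± 0.40 in G8 (0.00947), against −0.46 ± 0.38 in A7 (0.762).

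Of the 8 methionine families that passed the filter on low counts, 2 were thus lower in A4, E4 and G8 and none was called in A7, where 0.419% (A4), 3.71% (E4), 25.8% (G8) and 0.359% (A7) of all features were called. TRM-CAT3 was at −1.23 ± 0.28 in A4 (adjusted p = 0.0684) and between −0.59 and 0.01 in the other groups. TRM-CAT2, TRM-CAT4 and TRM-CAT5 lay between −1.08 and 0.46 and TRX-CAT1 and TRX-CAT2 between −0.51 and 0.80, with none called. TRM-CAT7 had 6 counts without PNK and 9 with it over 15 libraries and was not tested. TRM-CAT1 kept its call in E4 whichever library was left out, but lost it in A4 without any A4 library or mock replicate 2 (adjusted p 0.0525 to 0.109) and in G8 without G8 replicate 1 or 2 or mock replicate 2 (0.0801 to 0.0975). For TRM-CAT6 the call was lost in A4 without any library other than G8 replicates 2 and 3 and mock replicate 3 (0.0530 to 0.385), in E4 without any E4 library or mock replicate 1 or 2 (0.0628 to 0.113), and in G8 without G8 replicate 1 or 2 or mock replicate 1 (0.0525 to 0.0570). Without both G8 replicates 1 and 2, G8 gave −0.56 for TRM-CAT1 (adjusted p = 0.221) and −0.94 for TRM-CAT6 (0.184).

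Across the 4 THP-1 groups without PNK, 5 of the 8 families passed the F test of edgeR, where 33.1% of all features did. They were TRM-CAT1 (adjusted p = 0.0359), TRM-CAT3 (0.0264), TRM-CAT6 (0.0181), TRX-CAT1 (0.0278) and TRX-CAT2 (0.0297). Each of these calls was lost when any of several single libraries was left out, 6 of 12 for TRM-CAT6 (A4, A7 or E4 replicate 1 or 2; adjusted p 0.0501 to 0.0732), 8 of 12 for TRM-CAT3 (any of A4 or A7, or E4 replicate 1 or 2; up to 0.0958) and 9 of 12 for each of the other 3 (up to 0.123). For those 3, leaving out A4 replicate 3 ended the call of TRX-CAT1, leaving out A7 replicate 3 ended those of TRM-CAT1 and TRX-CAT2, and leaving out A4 replicate 1 or 2, A7 replicate 1 or 2, any E4 library, or a G8 library (replicate 2, or replicate 1 for TRX-CAT2) ended each.

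The balance of TRM-CAT6 to TRM-CAT1 differed among the THP-1 groups without PNK, and it needs no scaling. The log2 ratio of their counts was −1.26, −1.31 and −1.09 in A4, −0.63, −0.52 and −0.90 in A7, −1.34, −1.11 and −1.23 in E4, and −1.67, −2.31 and −1.79 in G8, and it was −0.63, −1.65 and −2.12 in mock. A7 lay above and G8 below the other THP-1 groups, A4 and E4 overlapped, and mock spanned the range of nearly all of them. The exact permutation p over the THP-1 groups was 0.000649 (adjusted over 16 tests 0.00675). With mock included it was 0.0386 (adjusted 0.0773). Neither p was computed without G8 replicates 1 and 2, and G8 replicate 3, at −1.79, also lay below the other THP-1 groups.

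The rare elongator families TRM-CAT2, TRM-CAT4, TRM-CAT5 and TRM-CAT7 together took a share of Met counts that also differed among groups without PNK. It was 7.25%, 8.20% and 11.03% in A4, 6.20%, 7.82% and 6.86% in A7, 9.56%, 14.1% and 12.5% in E4, and 2.36%, 1.02% and 4.72% in G8, against 3.78%, 2.96% and 2.06% in mock. E4 was high and G8 and mock were low. The exact permutation p was 0.000844 over the THP-1 groups and 0.000184 over all 5 (adjusted 0.00675 and 0.00295). Neither p was computed without G8 replicates 1 and 2, and G8 replicate 3, at 4.72%, also lay below the other THP-1 groups.

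With PNK, the initiator sum was higher in A4 than in every other group, and the difference rested on 1 or 2 libraries. It was at 439.4, 5647 and 191.1 CPM in A4, 221.0, 58.3 and 153.8 CPM in A7, 257.5, 140.7 and 191.8 CPM in E4, and 56.5, 62.9 and 205.7 CPM in G8, against 388.6, 93.2 and 73.9 CPM in mock. A4 replicate 2 was far above all others, A4 replicate 3 lay within the range of A7, E4, G8 and mock, and mock replicate 1 was above the other mock libraries. The log2 difference of A4 was 3.50 ± 0.97 from mock (edgeR, adjusted p = 0.0256), 3.89 ± 0.97 from A7 (0.0148), 3.44 ± 0.95 from E4 (0.0313) and 4.29 ± 0.99 from G8 (0.00875). The F test over the THP-1 groups gave an adjusted p of 0.00396 for iMet, where 21.8% of all features passed.

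Against mock 10.1% of all features were called in A4, and against A7, E4 and G8 14.4%, 10.1% and 13.9% were. Of the 46 other isoacceptors, 20 were called higher in A4 than in mock (median log2 difference 0.75) and 20 than in G8 (0.76). Against A7 2 were called higher and 1 lower (median 0.08), and against E4 1 was called higher (−0.06). In each of these comparisons iMet had the highest log2 difference of the 48 isoacceptors. Without A4 replicate 2 the iMet difference of A4 was 0.77 from mock (adjusted p = 0.608), 1.13 from A7 (0.240), 0.69 from E4 (0.546) and 1.57 from G8 (0.0874), and the F test gave 0.178. Without A4 replicates 1 and 2 it was 0.04 from mock (adjusted p = 0.995) and the F test gave 0.544. Leaving out mock replicate 2 or 3 (adjusted p 0.110 and 0.112), A7 replicate 2 or 3 (0.0644 and 0.0569) or any E4 library (0.0781 to 0.116) also ended the call of the pair concerned, and without G8 replicates 1 and 2 that with G8 was lost (0.212).

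In A4 replicate 2 the initiator held 5.34% of nuclear tRNA counts, against a median of 0.139% in the 12 plus PNK libraries other than A4 replicates 1 and 2 and mock replicate 1, a ratio of 38.5 and the highest of 48 isoacceptors. Thr-CGT (11.5) and Val-AAC (8.83) came next, and Met was at 1.38, near the median isoacceptor (1.37). In A4 replicate 1 iMet was again highest, with a ratio of 3.21. In mock replicate 1 it was 2.04, behind Asp-GTC at 3.34. Other RNAs were high in A4 replicate 2 as well: RN7SL1, the RNA of the signal recognition particle, was at 1042 CPM there, against 91.6 and 128.9 CPM in the other 2 A4 libraries, and RMRP, the RNA of RNase MRP, was at 991.7 CPM. Their part in the iMet level was not tested.

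No other group differed from mock in iMet with PNK (log2 differences −0.36 ± 0.88 in A7, 0.09 ± 0.88 in E4 and −0.77 ± 0.89 in G8), where 4.69%, 7.28% and 5.53% of all features were called. Met with PNK was at 340.9, 456.0 and 349.1 CPM in A4, 336.8, 245.2 and 339.4 CPM in A7, 404.1, 342.2 and 372.5 CPM in E4, and 124.7, 208.6 and 437.4 CPM in G8, against 270.8, 424.2 and 361.0 CPM in mock. The groups overlapped, and A7 replicate 2 and G8 replicates 1 and 2 lay under every mock library. The log2 differences from mock were 0.12 ± 0.33 (A4), −0.20 ± 0.33 (A7), 0.08 ± 0.33 (E4) and −0.45 ± 0.33 (G8; edgeR, adjusted p 0.482 to 0.921), and the F test over the THP-1 groups gave an adjusted p of 0.461. Without G8 replicate 3 that F test passed (0.00760), as did G8 against mock (−1.08, adjusted p = 0.0157). Among the 48 isoacceptor sums with PNK, Met was 8th (A4), 3rd (A7), 8th (E4) and 14th (G8) from the lowest difference from mock. The iMet sum was 48th, 2nd, 9th and 8th. The other 46 had a median log2 difference from mock of 0.75 (A4), 0.63 (A7), 0.85 (E4) and −0.04 (G8). Whether the difference between the arms varied among the groups, mock included, was tested as an interaction of group and arm (edgeR F test). The adjusted p was 0.193 for Met. It was under the threshold when same-numbered libraries of a group were taken as a block across the arms. A change in the difference from mock alone was not tested.

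Among the families with PNK, TRX-CAT1 and TRX-CAT2 moved with the initiator sum and no elongator family was called against mock. In A4 the log2 difference from mock was 3.45 ± 0.97 for TRX-CAT1 (edgeR, adjusted p = 0.0278) and 3.72 ± 1.03 for TRX-CAT2 (0.0254), where 10.8% of all features were called. Without A4 replicate 2 these were 0.75 (0.619) and 0.91 (0.549), and they were also lost without mock replicate 2 or 3 (adjusted p 0.107 to 0.118). In A7, E4 and G8 none of the 7 families tested was called (background 4.95%, 7.75% and 5.63%). Over the 4 THP-1 groups TRX-CAT1 (adjusted p = 0.00508), TRX-CAT2 (0.00367), TRM-CAT3 (0.0308) and TRM-CAT4 (0.00526) passed the F test out of 6 families tested, and 22% of all features did. Without A4 replicate 2 the first pair and TRM-CAT4 gave 0.206, 0.124 and 0.0531. TRM-CAT3 was lost without E4 or G8 replicate 1 or 2 (0.0573 to 0.0724).

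TRM-CAT4 with PNK was at 3.68, 9.18 and 2.76 CPM in A4, 0.806, 0.623 and 0.284 CPM in A7, 0.660, 1.38 and 1.11 CPM in E4, and 0.427, 0 and 1.55 CPM in G8. All A4 libraries were above all others of THP-1. Counts were few, at most 43 per library. TRM-CAT3 was at 16.5, 36.7 and 15.3 CPM in A4, 16.4, 11.7 and 16.02 CPM in A7, 31.9, 25.4 and 21.2 CPM in E4, and 5.34, 10.3 and 13.7 CPM in G8. G8 overlapped A7 and lay below E4 and A4.

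With PNK the balance between the abundant elongator families was shifted towards TRM-CAT6. It held more counts than TRM-CAT1 in 9 of 15 libraries with PNK and in 0 of 15 without it. TRM-CAT6 held 40.8% to 63.5% of Met counts with PNK, with a median of 50.8%, against 15.8% to 36.2% and a median of 24.7% without it. The lowest library with PNK lay above the highest without it. The share was 25.9 percentage points higher on average over the groups (exact permutation of the arm within groups, p = 6.25e-07, the smallest the 3200000 arrangements can give, adjusted over 11 tests 1.72e-06), and higher in 15 of 15 same-numbered pairs. By group the difference was 18.8 points for A4, 22.8 for A7, 24.6 for E4, 36.4 for G8 and 26.6 for mock. G8 replicates 1 and 2 were at 63.5% and 62.2% with PNK, and at 21.2% and 15.8% without it. G8 replicate 3 was at 41.1% with PNK and 20.6% without it, so the large G8 difference came from replicates 1 and 2.

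TRM-CAT1 held 29.9% to 55.1% of Met counts with PNK (median 43.9%), against 51.3% to 78.6% without it (median 57.6%). The arms overlapped across groups, but the share was lower in 15 of 15 same-numbered pairs, by 20.2 points on average (exact permutation p = 6.25e-07, adjusted 1.72e-06). The rare families TRM-CAT2, TRM-CAT4, TRM-CAT5 and TRM-CAT7 together held 0% to 4.39% with PNK, against 1.02% to 14.1% without it. Their share fell by 5.50 points (exact permutation p = 1.88e-06, adjusted 4.13e-06), also in 15 of 15 pairs. TRM-CAT3 held 5.35% of all Met counts with PNK and 4.66% without it, and its mean share per library was lower by 0.196 points (exact permutation p = 0.762, adjusted 0.802). The log2 ratio of TRM-CAT6 to TRM-CAT1 was 1.61 higher with PNK.

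**Figure D4:**
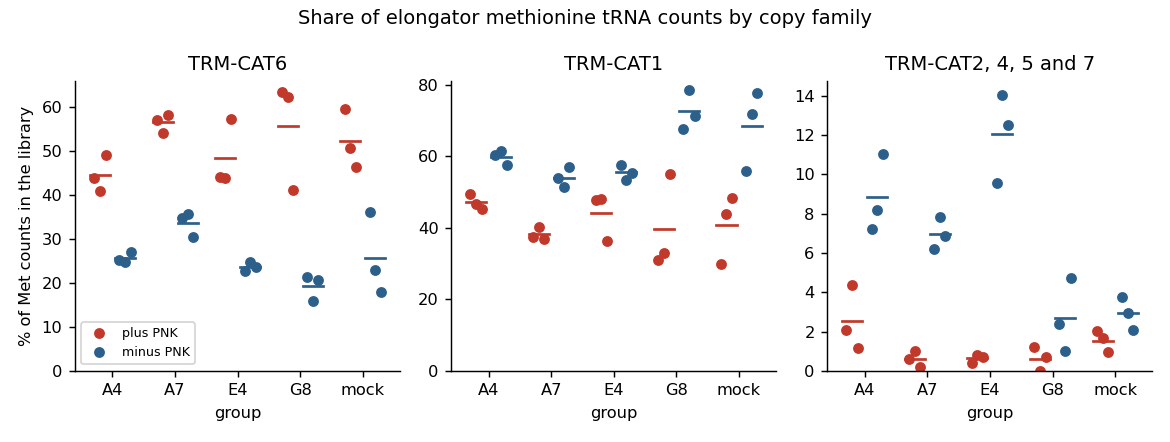
Share of the Met counts of each library (vertical axis, %) held by TRM-CAT6, by TRM-CAT1, and by TRM-CAT2, 4, 5 and 7 together, in each group, with PNK in red and without it in blue. Points are libraries, 3 per group and arm, and bars are group means. For TRM-CAT6 the red points (40.8% to 63.5%) lie above the blue points (15.8% to 36.2%), and for the rare families the red points lie below the blue ones in A4, A7, E4 and mock and overlap them in G8.

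Within the initiator, the minor family took a slightly larger share with PNK. TRX-CAT2 held 8.27% to 13.9% of iMet counts with PNK (median 11.3%), against 4.73% to 13.7% without it (median 9.52%). The ranges overlapped, and the share was 1.89 points higher with PNK (exact permutation p = 0.00543, adjusted 0.00995), in 10 of 15 same-numbered pairs. By group the difference was 3.92 points in A4, 1.73 in A7, −0.54 in E4, 2.85 in G8 and 1.48 in mock. The highest shares with PNK were those of A4 replicates 1 and 2 (13.93% and 13.88%), and no test was run without them. The copy TRX-CAT1-1 held 14.2% to 25.8% with PNK and 15.1% to 23.6% without it, a difference of −0.770 points (exact permutation p = 0.488, adjusted 0.597).

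Nuclear tRNA as a whole held a larger share of counts with PNK, by 8.22 percentage points and in 15 of 15 pairs (exact permutation p = 6.25e-07, adjusted 1.72e-06), whereas no difference in the methionine shares of nuclear tRNA passed the test. The iMet share of nuclear tRNA differed by 0.313 points (exact p = 0.802, higher in 4 of 15 pairs), and without A4 replicates 1 and 2 the difference was −0.0506 points. The Met share differed by −0.123 points (exact p = 0.0774, adjusted 0.122, higher in 4 of 15 pairs). With same-numbered libraries of both arms taken as pairs, that difference was under the threshold before adjustment. It was past the threshold without G8 replicate 3 of the plus arm (−0.160, exact p = 0.0160) or mock replicate 1 of the minus arm (−0.153, exact p = 0.0464). The log2 ratio of iMet to Met was 0.32 higher with PNK on average (exact p = 0.461, higher in 8 of 15 pairs), made up of 1.92 for A4, −0.24 for A7, −0.83 for E4, −0.48 for G8 and 1.23 for mock. Without A4 replicates 1 and 2 the average was −0.06.

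With PNK that ratio was 0.37, 3.63 and −0.87 in A4, −0.61, −2.07 and −1.14 in A7, −0.65, −1.28 and −0.96 in E4, and −1.14, −1.73 and −1.09 in G8, against 0.52, −2.19 and −2.29 in mock. Mock replicate 1 was among the highest libraries and the other 2 mock libraries were the lowest of all. The exact permutation p was 0.172 over the 5 groups and 0.0553 over the THP-1 groups. Leaving out A4 replicate 3 (0.0347 and 0.0129) or, over the 5 groups, mock replicate 1 (0.0285) brought it under the threshold.

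The level of the sums between the arms depended on the scaling, and no direction is given for it. With TMM factors the log2 difference with PNK minus without it was −1.98 ± 0.21 for Met and −1.18 ± 0.29 for iMet (edgeR, adjusted p = 4.60e-12 and 0.000281), where the median of all features was 3.44 and 93% were called. With library totals it was 1.80 for Met and 2.56 for iMet with a median of 5.89 over all features. Under both, the methionine sums stood below the median feature. With TMM the other 46 isoacceptors had a median of −3.20, and iMet was the 7th and Met the 11th highest of 48. Whether the difference between arms varied between groups was called for iMet (interaction, edgeR, adjusted p = 0.0260) where 0.318% of all features were, and at the family level (0.839% of features) for TRX-CAT1 (0.0153), TRX-CAT2 (0.0125) and TRM-CAT4 (0.0303). The iMet interaction had an adjusted p of 0.568 without A4 replicate 2 with PNK.

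Single copies could be told apart only in part. Of the Met counts, TRM-CAT1-1, at chromosome 8 positions 123157230 to 123157302 on the minus strand, and TRM-CAT6-1 made up 43.7% and 49.8% with PNK, and 62.8% and 26.9% without it. Each of the other 9 elongator copies held at most 3.83% with PNK and 2.52% without it. Of the 20 copies 15 lie on chromosome 6, 7 of iMet and 8 of Met, and 10 copies overlap a row of another annotation. TRM-CAT1-1 overlaps a row of 5693 bases with 14084 counts with PNK and 11653 without it, against 14077 and 11575 on the tRNA.

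The 8 copies of TRX-CAT1 have the same sequence identifier, and yet they did not take equal counts. TRX-CAT1-1, at chromosome 1 positions 153671250 to 153671321 on the plus strand, held most, 15.5% of iMet counts with PNK and 18.7% without it. The other 7 held 9.36% to 13.3% with PNK and 6.84% to 13.5% without it. A4 replicate 2 supplied 26217 of the 42772 iMet counts with PNK, and without it TRX-CAT1-1 held 17.5% and the other 7 held 8.78% to 12.1%. By the median share over libraries TRX-CAT1-6 was lowest with PNK (8.28%) and TRX-CAT1-5 without PNK (6.51%). Set against equal counts per copy within each library, the chi-square of all 8 copies per degree of freedom was 17.6 with PNK and 7.69 without it, where counting error alone gives values near 1. Without A4 replicate 2 it was 11.2 with PNK. For the 2 copies of TRM-CAT3 it was 22.5 with PNK and 4.73 without it. For the copies of TRM-CAT4 it was 0.984 and 0.949, and for those of TRM-CAT5 1.15 and 1.40. With few counts per copy and library, these values could hardly show a difference, and over all libraries with PNK the TRM-CAT4 copies held 73, 42 and 66 counts. How reads that match several copies were assigned was not given in the sources used here. Tests are therefore reported for families, and for single copies only for the share of TRX-CAT1-1. The edgeR tests of single copies were also run and are not reported.

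**Figure D5:**
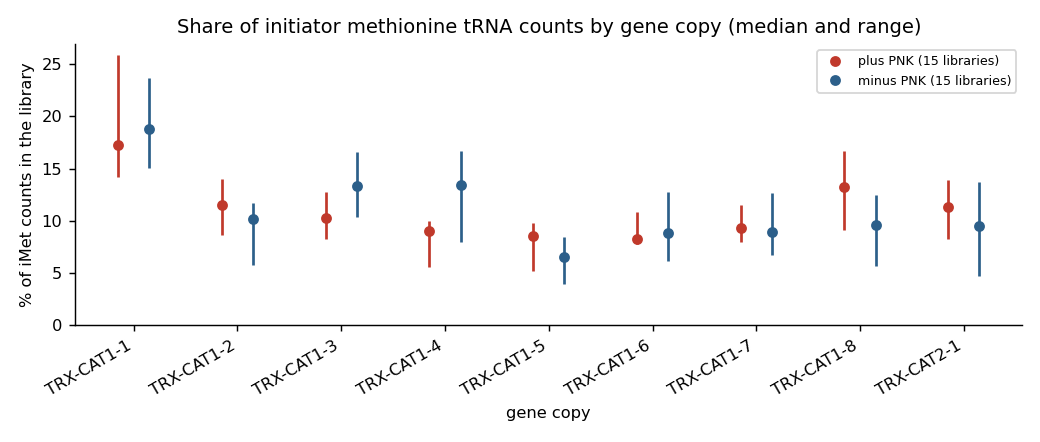
Share of iMet counts (vertical axis, %) of each of the 9 initiator copies, with PNK in red and without it in blue. Points are medians over 15 libraries and lines run from the lowest to the highest library. TRX-CAT1-1 has the highest median in both arms, and with PNK the other copies overlap. Without PNK the line of TRX-CAT1-1 (15.1% to 23.6%) overlaps those of TRX-CAT1-3 (10.4% to 16.6%) and TRX-CAT1-4 (8.0% to 16.7%). There TRX-CAT1-5 (3.94% to 8.42%) lies below TRX-CAT1-3.

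Across the 15 libraries of an arm, and among isoacceptors with a mean of at least 10 CPM, those whose log2 CPM followed the initiator most closely were not the elongator. Without PNK they were His-GTG (Spearman rho 0.900), Arg-ACG (0.864) and Gln-TTG (0.836), and Met was 38th of 44 with 0.196. With PNK they were Thr-CGT (0.932), Leu-TAA (0.818) and Lys-CTT (0.679), and Met was 16th of 45 with 0.475. The isoacceptor that followed Met most closely was Asp-GTC without PNK (0.811) and Leu-TAA with it (0.700). These coefficients describe libraries that share depth, scaling and groups, and with PNK the highest value belongs to Thr-CGT, which was high in A4 replicate 2 together with iMet.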

How the data were processed

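The mirVana PARIS kit served to enrich small RNA, and libraries were made with the NEBNext Small RNA kit, per the labels' protocols. Per the submitters' processing notes, Trim Galore, FastQC, Bowtie2 2.3.5.1, SAMtools 1.9, deepTools 3.2.1, bedtools 2.28.0 and GRCh38 were used. The authors deposited raw counts of reads per annotated row, with no normalization. How strands and reads with several alignments were handled was not given in the sources used here. Rows that overlap were reduced to 85934, small RNAs first, and named nuclear tRNA rows were summed per isoacceptor and per family (sequence identifier). The quasi-likelihood test of edgeR (version 4.0.16, R 4.3.3) was applied to these counts with TMM factors, the filter of filterByExpr and Benjamini-Hochberg adjustment over all features (threshold 0.05), each arm alone, or over 30 libraries for PNK. The design planned con in the test over THP-1 groups, and it was run without con. Within-library ratios and shares were tested by exact permutation, two-sided. Both kinds of test were checked on simulated data. Counts were never averaged between arms. DESeq2 1.42.0, other scalings, filters and replicate subsets were alternatives. Every family with at least 30 counts and every copy with at least 1% of its kind was to be named. The members and lists were chosen with earlier results of these data known.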

Additional observations from a re-analysis of the deposited data

Results flagged for a closer look

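The difference between the PNK arms varied between groups for 4 quantities, each by the interaction of group and arm in edgeR (Benjamini-Hochberg over all features). For the initiator sum the adjusted p was 0.0260, and the log2 difference with PNK minus without it was 2.275 ± 0.68 in A4, against −2.72 ± 0.69 in A7, −1.84 ± 0.67 in E4, −2.05 ± 0.67 in G8 and −1.57 ± 0.66 in mock (SE, TMM). A4 stood highest, the zero point of these values depends on the scaling between arms, and without A4 replicate 2 with PNK the adjusted p was 0.568. The call was also lost without any A4 library, E4 replicate 1 or 2 or mock replicate 1 or 2 of the minus arm (0.0503 to 0.175). For its families the adjusted p was 0.0153 (TRX-CAT1) and 0.0125 (TRX-CAT2), and without A4 replicate 2 with PNK it was 0.432 and 0.297. Both were also lost without A4 replicate 1 or 2 of the minus arm (0.0682 to 0.0993), and TRX-CAT1 without A4 replicate 3 of that arm (0.0609).

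For the elongator family TRM-CAT4 the adjusted p was 0.0303. The log2 difference with PNK minus without it was −2.66 ± 0.51 in A4, against −6.85 ± 0.62 in A7, −5.19 ± 0.59 in E4, −4.10 ± 0.70 in G8 and −4.23 ± 0.53 in mock (SE, TMM over both arms). Its counts were few, and with each arm scaled on its own it was at 3.68, 9.18 and 2.76 CPM in A4 with PNK and 1.82, 2.23 and 3.42 CPM without it, against 0.284 to 0.806 CPM in A7 with PNK and 3.92 to 5.23 CPM without it. The call was lost without A4 replicate 2 with PNK (0.101), A7 replicate 3 with PNK (0.0728), or A4 replicate 1 or 2 or any A7 library without PNK (0.0506 to 0.0970).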

How the results depend on the processing

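Of 31 main results, those not named here kept their direction and their side of the threshold under every alternative run. Against mock without PNK, Met in A4 was −2.17 with library totals (adjusted p = 0.116) and −2.13 with the replicate block (0.0523). In E4 it was −1.98 with library totals (0.0640) and −1.94 without a filter (0.0751). In G8 it was −1.45 without a filter (0.162) and −0.35 without G8 replicates 1 and 2 (0.492), and in A7 −0.78 without those libraries (0.0323). iMet passed in A7 with DESeq2 (0.71, adjusted p = 0.00594) and without G8 replicates 1 and 2 (0.72, 0.0311), and in G8 with DESeq2 (0.49, 0.0209), where library totals gave −0.24. DESeq2 called 24, 29 and 104 features in A4, A7 and E4, against 3, 0 and 16 by edgeR, which had 154 at an unadjusted p under 0.05 in A7.

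Across the THP-1 groups without PNK, the adjusted p of Met was 0.0772 with library totals, 0.799 without a filter, 0.0621 with every row counted and 0.0550 with the block. That of iMet was 0.799, 0.0756 and 0.0538 under the last 3. With PNK, library totals turned Met to −0.45 in A4 and −0.28 in E4 and iMet to −0.16 in E4. Without G8 replicates 1 and 2, G8 gave 0.31 for Met and 0.14 for iMet. iMet in A4 was 3.63 with the block (0.0562), and the F test gave 0.0638. Without A4 replicates 1 and 2, an alternative chosen after seeing the data, iMet in A4 was 0.043 (F test 0.544, interaction 0.872), Met −0.011, A4 minus E4 of iMet −0.031 and TRX-CAT2 −0.18.

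Between arms, Met turned to 0.57 with DESeq2's size factors or test and 1.80 with totals, and iMet to 1.27 and 2.56. iMet without a filter was −0.37 (0.128). The Met interaction was 0.00142 with the block and 0.00125 without G8 replicates 1 and 2. The log2 ratio changed by 0.86 in the largest families (exact p = 0.0238) and by −0.064 without A4 replicates 1 and 2, and the iMet share by −0.0506 points. The Met share changed by −0.0185 points without overlapping members (exact p = 2.5e-06), −0.149 in the largest family (0.00451) and −0.123 with the block (0.0217). Among groups without PNK, the exact p of the ratio was 0.0194 (largest families) and 0.000714 (without G8 replicates 1 and 2) over THP-1, and 0.0699 over 5 groups without overlapping members, which left no Met count in a library with PNK, so that arm gave no value.

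With each library left out in turn, the log2 difference from mock without PNK ranged from −2.29 to −1.98 (A4), −0.90 to −0.68 (A7), −2.08 to −1.86 (E4) and −1.82 to −0.83 (G8) for Met, and from 0.60 to 0.75 in A7 for iMet. With PNK it ranged from −0.040 to 0.27 (A4), −0.071 to 0.24 (E4) and −1.08 to −0.13 (G8) for Met, and from 0.77 to 4.64 (A4), −0.80 to 0.79 (A7), −0.30 to 1.24 (E4) and −1.63 to 0.38 (G8) for iMet. The adjusted p over the THP-1 groups ranged from 0.000249 to 0.112 (Met) and 0.00104 to 0.133 (iMet) without PNK, and from 0.00760 to 0.691 and 0.000571 to 0.178 with it. The interaction ranged from 0.000893 to 0.345 (Met) and 0.000319 to 0.568 (iMet). The change with PNK ranged from −0.160 to −0.0964 points (Met share) and −0.0227 to 0.495 points (iMet share). The exact p of the ratio ranged over the THP-1 groups from 0.000130 to 0.176 without PNK and 0.0129 to 0.269 with it, and over 5 groups from 1.43e-06 to 0.00196 and 0.0285 to 0.703.

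The cause of these changes was not tested. Same-numbered libraries correlated above 0.1 in 14 of 30 cases without PNK, 4 of 30 with it and 13 of 15 between arms. The own number was highest in 7, 6 and 10. Within an arm the numbers were therefore not taken to pair libraries. Between arms most same-numbered libraries did correlate, but the labels give only a shared number, and the main tests left them unpaired. The results between arms with the block should be read beside those tests. Of 24 called results on families and pairs of groups, 9 lost the call with the block, 6 with library totals, 6 without a filter, 3 with every row counted and 1 each with DESeq2's size factors and test. With the block these were iMet between A4 and A7 without PNK (0.0617) and, with PNK, between A4 and A7 (0.0595) and A4 and E4 (0.0986); TRM-CAT6 in A4 against mock without PNK (0.0724); TRX-CAT1 and TRX-CAT2 in A4 against mock with PNK (0.0629 and 0.0572); and the THP-1 F tests of TRX-CAT1 (0.0526 without PNK, 0.0749 with it) and TRX-CAT2 (0.0627 with it). Library totals ended TRM-CAT1 and TRM-CAT6 in A4 (0.0715 and 0.152) and TRM-CAT6 in E4 (0.0629) against mock without PNK, and no filter ended TRM-CAT1 in G8 (0.178). Rare families, at 0 to 65 counts per library, limit what could be detected.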
